A study of Mus musculus with 18 samples.

Results

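A set of 10 genes of the TREM, CD300 and paired immunoglobulin-like receptor families, with the adaptors and the kinase that carry their signals, were followed across 18 RNA sequencing libraries of mouse macrophages. They were chosen by symbol (Trem1, Trem2, Trem3, Tyrobp, Hcst, Syk, Cd300a, Cd300lf, Pilra and Sirpa), and each matched 1 of the 56748 rows of the count table. All 10 passed the filter on low counts, which kept 15450 genes for testing. The cells were bone marrow-derived macrophages (BMDMs), grown out of the marrow of C57BL/6J mice in medium with L929 cell supernatant, which supplies the macrophage growth factor M-CSF. They came from wild-type mice or from knockouts of Tlr4, the lipopolysaccharide receptor gene. On day 7 they were moved to serum-free IMDM and given water, GM or MDP for 24 h, so that all 6 groups share the L929 culture, the serum-free medium and the time. GM is the disaccharide GlcNAc-MurNAc of bacterial peptidoglycan. MDP stands for a muramyl dipeptide, MurNAc carrying 2 amino acids, which the labels write as MurNAc-D-Ala-L-Gln, not as the MurNAc-L-Ala-D-isoGln known to activate NOD2. Doses and the deleted part of Tlr4 are not given in the sources used here. Each group held 3 libraries that the labels call biological replicates without naming animals or cultures, so p-values measure only the spread between these libraries, which may be partly technical.

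TREM and CD300 proteins are surface receptors with a single immunoglobulin-like domain. The activating ones, such as TREM-1, TREM-2 and TREM-3, have almost no cytoplasmic tail and pair with DAP12, the product of Tyrobp, whose ITAM motif is phosphorylated by Src family kinases and then recruits the kinase Syk. DAP10, the product of Hcst, is a partner adaptor that engages PI3 kinase. Inhibitory relatives, such as CD300a, CD300lf, PILR-alpha and SIRP-alpha, carry ITIM motifs that recruit the phosphatases SHP-1 and SHP-2. In macrophages TREM-1 is known as an amplifier of inflammatory responses to bacterial products, and TREM-2 as a lipid receptor of phagocytes.

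Trem1 and Trem2 were the members whose MDP response differed between the genotypes, and the 300 bases around their starts are shown for that reason. The sequences are RefSeq promoters on build GRCm38.p6, 250 bases before to 50 after the gene start, each on the plus strand, at chr17:48232489-48232788 for Trem1 and chr17:48346151-48346450 for Trem2. Capitals mark the motifs found on either strand.
Trem1: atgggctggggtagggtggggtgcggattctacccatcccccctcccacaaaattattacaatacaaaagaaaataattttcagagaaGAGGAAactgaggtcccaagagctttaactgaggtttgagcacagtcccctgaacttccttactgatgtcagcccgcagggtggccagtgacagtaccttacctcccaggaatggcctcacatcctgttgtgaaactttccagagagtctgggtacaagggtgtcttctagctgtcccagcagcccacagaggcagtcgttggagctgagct
Trem2: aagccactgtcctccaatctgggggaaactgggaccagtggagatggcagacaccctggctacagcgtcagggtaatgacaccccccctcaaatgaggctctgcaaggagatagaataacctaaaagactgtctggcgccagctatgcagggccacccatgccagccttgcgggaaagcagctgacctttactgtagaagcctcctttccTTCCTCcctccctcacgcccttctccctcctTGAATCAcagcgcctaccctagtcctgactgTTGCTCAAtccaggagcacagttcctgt
The 5 motifs searched on both strands were the PU.1 core GAGGAA, AP-1 TGANTCA, C/EBP TTGCNNAA, the interferon-stimulated response element (ISRE) and the NF-kB consensus. PU.1 is the transcription factor that macrophages need for their identity. The Trem1 window held 1 match, a PU.1 core starting 162 bases before the gene start. The Trem2 window held a PU.1 core on the minus strand (position -40, counted from the first base of the gene as 0), an AP-1 match (position -9) and a C/EBP match (position 22), and none of these overlapped. Promoters were found for 7 of the 10 members. The PU.1 core stood in 6 of the 7 (1 of the 2 windows of Syk, and not Hcst), against 28.3% of all 32851 promoters. C/EBP stood in 3 (Trem2, Cd300a and Pilra), against 10.8% of all. AP-1 was matched in Trem2 alone of the 7 (7.81% of all), ISRE in Pilra alone (3.44%) and the NF-kB consensus in Cd300a alone (8.46%). A match is a description of the letters and not evidence of binding.

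The genes lie in clusters. On GRCm39, the build of the count table, Trem1 (ENSMUSG00000042265, chr17:48539796-48553952), Trem3 (ENSMUSG00000041754, chr17:48554805-48565869) and Trem2 (ENSMUSG00000023992, chr17:48653429-48661175) follow each other on the plus strand, with 852 bases between Trem1 and Trem3 and 87559 between Trem3 and Trem2. Tyrobp (ENSMUSG00000030579, chr7:30113185-30117010) and Hcst (ENSMUSG00000064109, chr7:30117137-30119279) are on opposite strands 126 bases apart. Cd300a (ENSMUSG00000034652, chr11:114780867-114795480) and Cd300lf (ENSMUSG00000047798, chr11:115007040-115024818) share a cluster, 211559 bases apart. Syk (ENSMUSG00000021457) is on chr13:52737209-52802828, Pilra (ENSMUSG00000046245) on chr5:137820214-137834543 and Sirpa (ENSMUSG00000037902) on chr2:129434755-129474148. Opposite-strand genes overlap Trem1 (Gm18679, 7 counts over all libraries against 3050), Cd300lf (Rab37, 637 against 46856) and Pilra (Zcwpw1, 1874 against 39095). Whether counting used strand is not stated. Reads shared with near-identical relatives (Pilrb1 and Pilrb2, the Sirpb1 genes, other CD300 genes) could have been counted in more than 1 way, so the values of Pilra, Sirpa, Cd300a and Cd300lf are uncertain to that extent.

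The libraries held 15532973 to 21128507 counts. Tlr4 lay at 117 to 230 CPM (counts scaled to a common library size) in the wild-type libraries and at 36.5 to 52.9 in the knockout libraries, without overlap. The macrophage genes Adgre1, Csf1r and Cd68 reached at least 614 CPM in every library, so the cells carried the markers of the labelled type, with the haemoglobin scavenger gene Cd163 at or below 0.454 CPM. Libraries of 1 group spread far more in wild type than in knockout, with a biological coefficient of variation of 35.5% in wild-type water and 27.6% in wild-type GM against 8.11% in wild-type MDP and 5.71% to 6.49% in the knockout groups. Wild-type water replicate 3 stood apart from the other 2: its summed cell cycle genes were 89.8 CPM against 330 and 279, and its summed stromal genes 98.6 against 483 and 442. Results in wild-type water are therefore given with and without it where it changes them.

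Per kilobase of gene length, Tyrobp was the highest member at a mean of 955 CPM per kb over all libraries, followed by Sirpa (248), Trem2 (83.2), Syk (68.3), Pilra (37.4), Cd300lf (27.1), Cd300a (26.1), Hcst (8.88), Trem1 (3.02) and Trem3 (1.22). Tyrobp lay above Sirpa, and Sirpa above Trem2, in 18 of 18 libraries without overlap of their ranges. Trem2 lay above Syk in 14 of 18 libraries, and Cd300lf above Cd300a in 8 of 18, so these neighbours were not separated. The authors' FPKM values gave the same order. DAP12 transcripts were thus far more abundant per length than those of any other member, and DAP10 transcripts were low. Over the libraries, the highest CPM exceeded the lowest by 10.3 times for Trem3, 7.85 for Pilra and 5.96 for Trem1, but by 1.44 for Sirpa and 1.46 for Tyrobp.

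**Figure D1:**
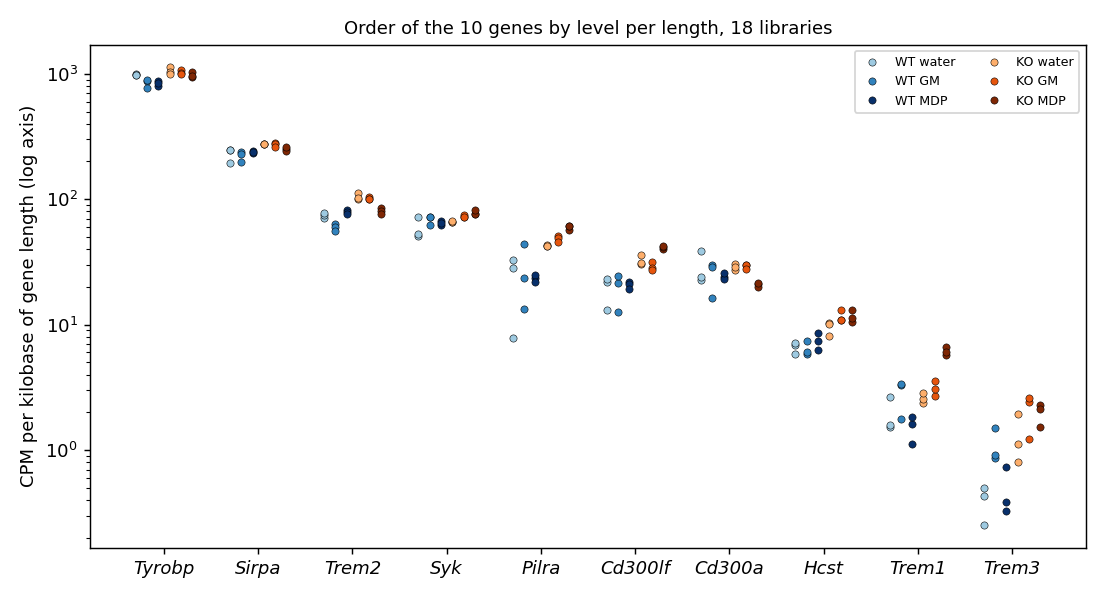
Level of each member per kilobase of gene length (CPM per kb, log axis), 1 point per library, ordered by the mean over 18 libraries. Tyrobp has the highest mean at 955 and Trem3 the lowest at 1.22.

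In knockout macrophages MDP raised the activating receptor gene Trem1 and lowered Trem2, and the inhibitory receptor genes split, with Pilra and Cd300lf higher and Cd300a and Sirpa lower. In wild-type macrophages none of the 10 genes passed the test for either compound against water. Syk was higher with both compounds in knockout cells, whereas the adaptor genes Tyrobp and Hcst passed in no comparison. Counts below are of genes with a Benjamini-Hochberg adjusted p below 0.05 in edgeR's 2-sided quasi-likelihood test, adjusted over all 15450 genes. For MDP against water in knockout, 7 of 10 members passed against 19.2% of all genes tested. Of these, 4 were higher (9.16% of all genes) and 3 lower (10%), and the groups did not overlap for 8 members, against 32.8% of all genes. For GM against water in knockout, 2 passed, both higher (7.84% of all genes passed, 3.61% higher), and 3 did not overlap (23.4%). For GM against water in wild type, 0 passed (0.608%), 2 had an unadjusted p below 0.05, DESeq2 and limma also called 0, and 3 did not overlap (12%). The fit of all 18 libraries called 1 of them, Trem2 (log2 -0.32, adjusted p = 0.0141). For MDP against water in wild type, 0 passed (8.34%), 1 had an unadjusted p below 0.05, DESeq2 and limma also called 0, and 1 did not overlap (37.2%). Without wild-type water replicate 3 this test called 3 of the 10, Syk higher and Tyrobp and Pilra lower, among 5479 genes in all. The fit of all 18 libraries called 1, Tyrobp (log2 -0.22, adjusted p = 0.0447). The comparisons of GM and of MDP with water share the water libraries of their genotype.

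**Figure D2:**
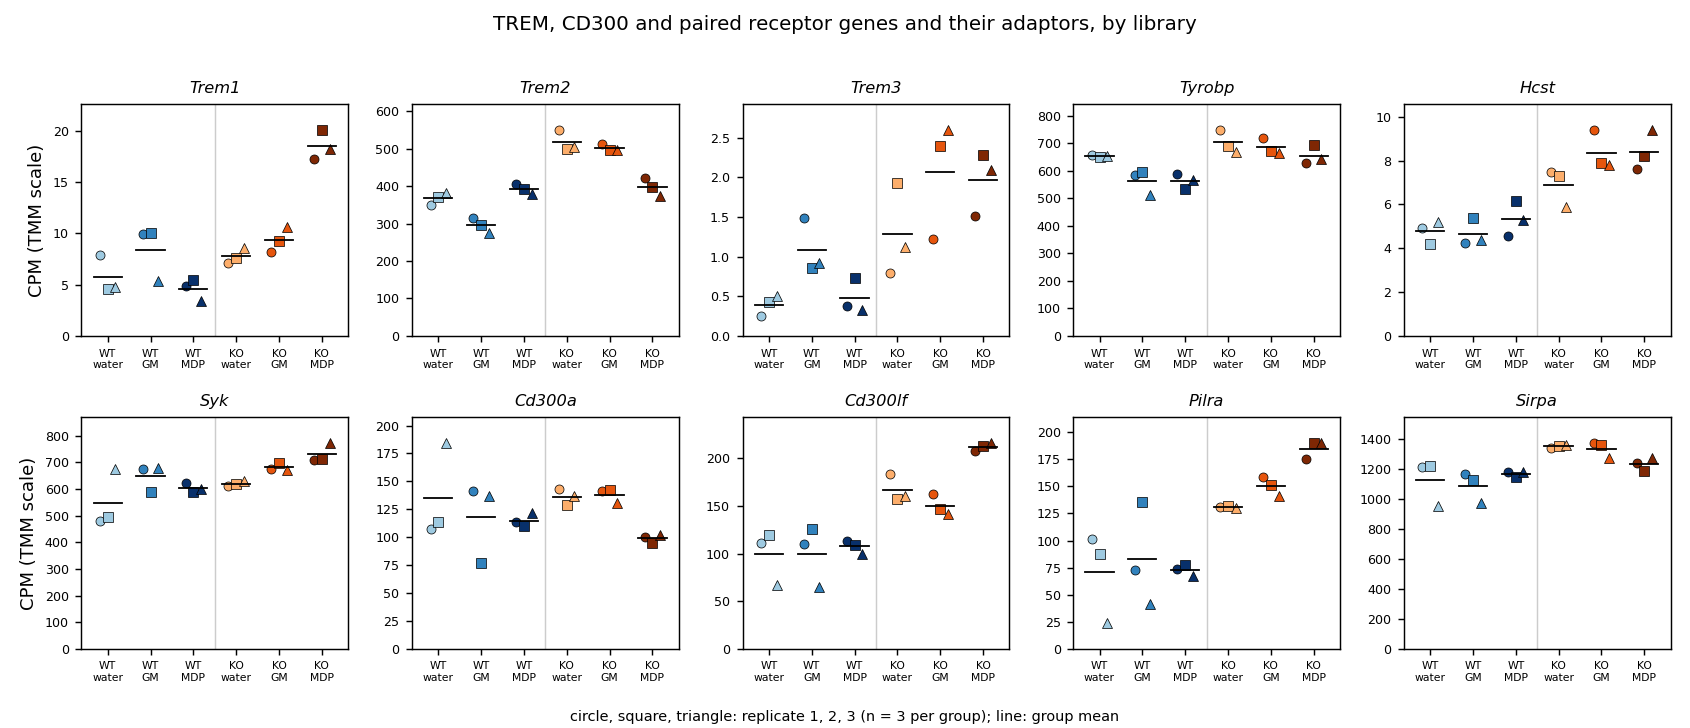
CPM of each member in every library, 1 point per library with the group mean as a line, by genotype and treatment. Trem1 in knockout MDP sits at 17.3 to 20.1 CPM, above every other library, and the points of wild-type water and GM spread most for Pilra.

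Among the activating receptors, Trem1 was measured at 7.12, 7.63 and 8.57 CPM in knockout water and at 17.3, 20.1 and 18.2 in knockout MDP. All 3 MDP libraries lay above all 3 water libraries, and above every other library of the study. The mean of 18.5 ± 1.43 CPM was 2.38-fold that of water, 7.77 ± 0.735 (SD, n = 3). The log2 change was 1.26 (SE 0.12, edgeR adjusted p = 6.7e-11). In knockout GM it stood at 8.13, 9.22 and 10.6 CPM, overlapping water (log2 0.27, adjusted p = 0.288). These knockout levels rest on 134 to 396 reads per library.

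In wild type no difference in Trem1 between treatments passed the test of the 6 compared libraries. It was at 7.87, 4.57 and 4.76 CPM in water, 9.93, 9.99 and 5.31 with GM and 4.87, 5.47 and 3.36 with MDP. GM and MDP overlapped in 1 library, and the difference did not pass (log2 0.88, 95% interval 0.18 to 1.58, adjusted p = 0.104). It did pass in the fit of all 18 libraries (0.88, adjusted p = 0.0252). Without GM replicate 3, the library that overlapped, it passed as well (1.12, adjusted p = 0.015). MDP against water gave a log2 difference of -0.33 (95% interval -1.05 to 0.40, adjusted p = 0.537). The MDP response of Trem1 differed between genotypes by -1.58 (wild type minus knockout, log2, SE 0.32, 95% interval -2.27 to -0.89, adjusted p = 0.0117). It ran from -1.73 to -1.28 and passed under every alternative run.

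Trem2 fell where Trem1 rose. It was at 550, 500 and 503 CPM in knockout water, 513, 495 and 496 in knockout GM and 420, 396 and 375 in knockout MDP. The MDP libraries lay below all others of that genotype, and the mean fell from 518 ± 27.9 to 397 ± 22.8 CPM (SD, n = 3). The log2 change was -0.38 (SE 0.05, edgeR adjusted p = 6.9e-08). In wild type it was at 349, 370 and 383 CPM in water, 315, 295 and 275 with GM and 404, 392 and 378 with MDP. The GM libraries were the lowest of the study and overlapped neither water nor MDP.

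Trem2 was lower with GM than with MDP in wild type (log2 -0.41, SE 0.09, adjusted p = 0.0344), the only one of the 10 members to pass there (9.99% of all genes passed, 4.41% lower), with 2 not overlapping (36.7%). That call was lost on leaving out GM replicate 1 or any MDP replicate (adjusted p 0.0843 to 0.145). GM against water gave -0.32 and did not pass (adjusted p = 0.659). In wild type the summed level of 10 macrophage genes was also lowest with GM. It was 24442 to 24979 CPM, against 26659 to 29600 in water and 28523 to 30332 with MDP. Most of this sum was Lyz2 (21134 to 28635 CPM over all libraries). In knockout, where Trem2 fell with MDP, the sum overlapped between water (28091 to 30131 CPM) and MDP (27977 to 29738). Single macrophage genes did move there, with 1 of 9 tested higher and 3 lower with MDP (19.2% of all genes passed). Of 9 macrophage genes tested in GM against MDP in wild type, 1 was lower. In the same comparison 8 of 13 stromal genes were higher and 4 of 12 cell cycle genes lower with GM. The part of these markers in the Trem2 difference was not tested. The MDP response of Trem2 differed between genotypes by 0.48 (wild type minus knockout, log2, SE 0.10, 95% interval 0.25 to 0.70, adjusted p = 0.0164), but not without knockout MDP replicate 3 (0.43, adjusted p = 0.0520).

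For the 10 members, 2 passed in the test of the MDP response between genotypes, Trem1 lower and Trem2 higher (7.97% of all genes, 3.34% lower and 4.63% higher), and 0 in that of the GM response (0.939%; 1 at an unadjusted p below 0.05, and 0 with DESeq2 and limma). Without wild-type water replicate 3 the MDP test called 5, adding Pilra (-0.87), Cd300a (0.52) and Cd300lf (-0.45). That setting called 4044 of the 15450 genes tested, against 1232 with all libraries, so calls rose over all genes as well. A direct test of GM against MDP between genotypes, added after these values were seen, uses no water library. It called the same 2 members (15.1% of all genes, 8.04% higher and 7.05% lower): Trem1 at 1.87 (SE 0.32, adjusted p = 0.00203) and Trem2 at -0.74 (SE 0.10, adjusted p = 0.000352). In knockout alone, GM against MDP called 5 members (16.4%, with 8.08% higher and 8.31% lower), with Trem2 (log2 0.34) and Cd300a (0.48) higher with GM and Trem1 (-0.99), Cd300lf (-0.50) and Pilra (-0.30) lower, and 6 did not overlap (31.5%). In the fit of all 18 libraries Trem2 alone of these 5 passed (adjusted p = 0.0246), and Trem1 (0.0529), Cd300a (0.369), Cd300lf (0.361) and Pilra (0.898) did not. The compounds differ in structure in that GM carries a second sugar and MDP carries 2 amino acids. As doses are not stated, the tests compare the treatments as applied, at the same 24 h.

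Trem3, a mouse receptor gene next to Trem1 that also uses DAP12, was near the limit of detection, with 5 to 58 reads per library. It was at 0.252, 0.426 and 0.498 CPM in wild-type water and 1.48, 0.859 and 0.916 with GM, which did not overlap. The difference did not pass (log2 1.46, 95% interval 0.34 to 2.58, edgeR adjusted p = 0.526). In knockout water it was at 0.797, 1.93 and 1.12 CPM, with GM at 1.23, 2.39 and 2.60 and with MDP at 1.51, 2.28 and 2.09. All knockout libraries were above all wild-type water libraries.

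The adaptor genes passed no test. Tyrobp was at 659, 650 and 654 CPM in wild-type water, 586, 597 and 511 with GM and 589, 533 and 566 with MDP. Both treated groups lay below water without overlap, yet neither difference passed (GM log2 -0.21, adjusted p = 0.967, and MDP -0.22, adjusted p = 0.187). Without wild-type water replicate 3 the MDP difference kept its size and passed (-0.22, adjusted p = 0.00472). In knockout Tyrobp was at 669 to 749 CPM in water, 664 to 719 with GM and 627 to 694 with MDP, and the groups overlapped. Hcst was at 4.94, 4.20 and 5.20 CPM in wild-type water and at 7.49, 7.31 and 5.90 in knockout water. It ran from 7.79 to 9.40 CPM in knockout GM and from 7.63 to 9.39 in knockout MDP, both above water (log2 0.27 and 0.28, adjusted p = 0.309 and 0.218).

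Syk, the kinase that binds the phosphorylated ITAM, was at 611, 618 and 632 CPM in knockout water, 677, 696 and 673 with GM and 710, 714 and 773 with MDP. Each treated group lay above water, and both differences passed (GM log2 0.14, SE 0.04, adjusted p = 0.0206; MDP 0.24, SE 0.05, adjusted p = 8.3e-05). The rises were 1.10-fold and 1.18-fold. In wild type it was at 478, 494 and 675 CPM in water, 676, 588 and 680 with GM and 623, 588 and 601 with MDP. The third water library overlapped the treated ones. Without it, MDP was above water (log2 0.31, adjusted p = 0.000141), where all 3 libraries gave 0.14 (adjusted p = 0.604). The GM call in knockout was lost without water replicate 1 or 2 or GM replicate 2 (adjusted p 0.0638 to 0.0972).

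The inhibitory receptors of knockout cells moved in both directions with MDP. Pilra, an ITIM receptor of myeloid cells whose ligands include PANP and NPDC1, was at 131, 132 and 130 CPM in knockout water, 159, 152 and 141 with GM and 175, 190 and 190 with MDP. The 3 groups did not overlap, and both treatments were higher than water (GM log2 0.20, SE 0.05, adjusted p = 0.00338; MDP 0.50, SE 0.05, adjusted p = 1.7e-10). In wild type it was at 101, 87.4 and 24.2 CPM in water, 72.4, 135 and 41.2 with GM and 73.3, 77.3 and 67.6 with MDP. The third libraries of water and GM were the 2 lowest of the study. The MDP difference was 0.04 with all libraries and turned to -0.37 without water replicate 3 (adjusted p = 0.000605), so it has no settled direction.

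Cd300lf, a phospholipid receptor with ITIMs that is also the entry receptor of murine norovirus, was at 184, 157 and 160 CPM in knockout water, 163, 147 and 141 with GM and 208, 213 and 216 with MDP. MDP lay above water without overlap (log2 0.35, SE 0.05, edgeR adjusted p = 1.8e-06). GM overlapped water and did not pass (log2 -0.15, adjusted p = 0.164). Cd300lf was called lower with GM without the filter on low counts (adjusted p = 0.0159), with a replicate block (0.0293) and without GM replicate 1 (0.0066). In wild type it ran from 66.8 to 119 CPM in water, 65.0 to 126 with GM and 99.5 to 114 with MDP, all overlapping. Its neighbour Cd300a, an ITIM receptor for phosphatidylserine and phosphatidylethanolamine, went down instead. It was at 143, 129 and 137 CPM in knockout water, 141, 142 and 131 with GM and 100, 94.4 and 102 with MDP. The mean fell from 136 ± 7.43 to 99.0 ± 4.11 CPM (SD, n = 3). The log2 change was -0.46 (SE 0.05, adjusted p = 5.3e-09). In wild type it was at 107, 114 and 185 CPM in water, 141, 77.1 and 137 with GM and 114, 110 and 121 with MDP.

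Sirpa, the receptor for the don't-eat-me protein CD47, was at 1342, 1356 and 1357 CPM in knockout water and 1239, 1187 and 1271 with MDP, without overlap (log2 -0.13, SE 0.04, edgeR adjusted p = 0.0257). This call was lost on leaving out any water replicate or MDP replicate 2 (adjusted p 0.0559 to 0.133). It ran from 1270 to 1374 CPM with GM. In wild type Sirpa was at 1212, 1220 and 951 CPM in water, 1163, 1126 and 974 with GM and 1182, 1148 and 1176 with MDP, and no difference passed. The calls for Pilra, Cd300lf, Cd300a and Syk with MDP in knockout passed on leaving out each library in turn. With 1 spread estimated over all 18 libraries they did not pass (adjusted p = 0.715, 0.557, 0.341 and 0.341), nor did Sirpa (0.636), while Trem1 and Trem2 did. The calls for Syk and Pilra with GM in knockout were lost in that fit as well (adjusted p = 1 for each).

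**Figure D3:**
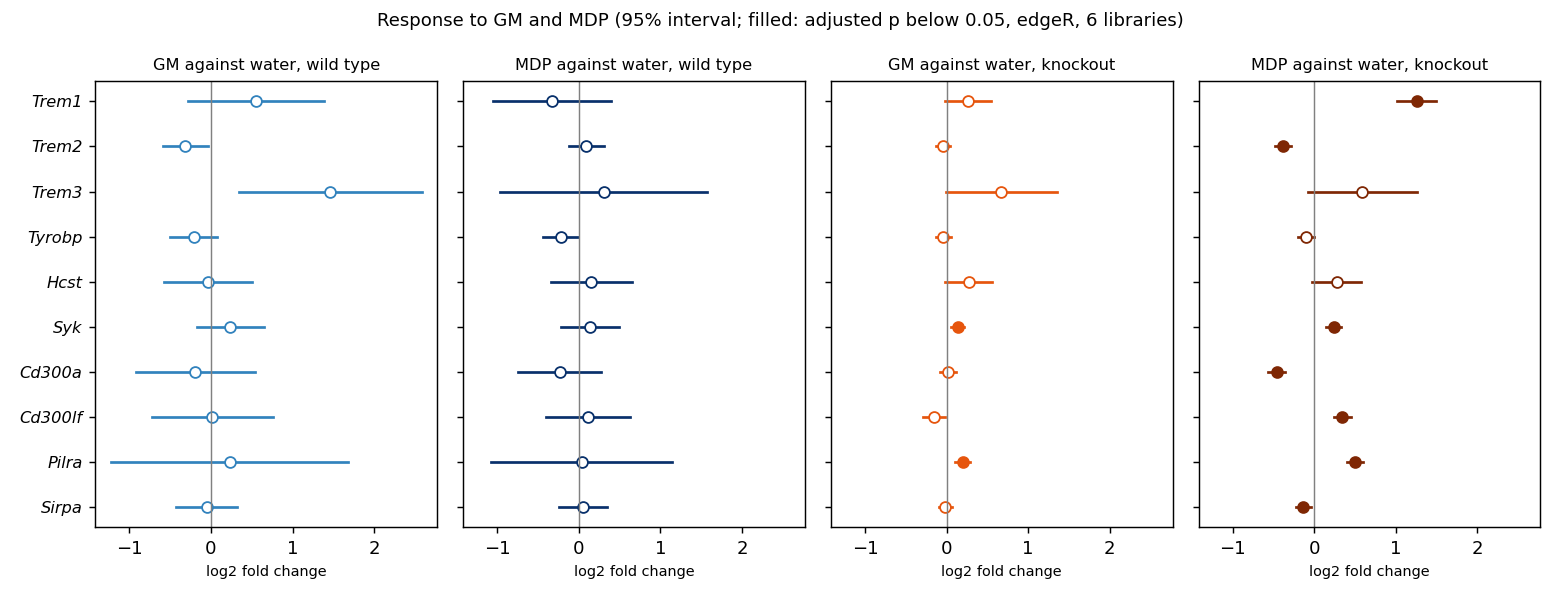
Log2 fold change of each member with its 95% interval, for GM and MDP against water in each genotype (filled: edgeR adjusted p below 0.05). In knockout MDP, Trem1 lies at 1.26 and Cd300a at -0.46; the wild-type intervals are wider.

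Between genotypes in water, Trem2 was higher in knockout, at 518 ± 27.9 against 367 ± 17.1 CPM (SD, n = 3), 1.41-fold (log2 0.50, SE 0.09, edgeR adjusted p = 0.0173). It was the only one of 10 members to pass (14.6% of all genes, 6.32% higher). The 7 members Trem2, Trem3, Tyrobp, Hcst, Cd300lf, Pilra and Sirpa were higher in every knockout water library than in every wild-type water library, and 0 were lower. Of all genes, 44.4% did not overlap between these 2 groups, in either direction. The largest differences that did not pass were Trem3 (log2 1.71, adjusted p = 0.0647), Pilra (0.89, 0.240) and Cd300lf (0.75, 0.0668). The single call depended on the libraries. It was lost without water replicate 1 or 2 of wild type or any water replicate of knockout (adjusted p 0.0555 to 0.0999). Without wild-type water replicate 3 the test called 8 members, all but Trem1 and Tyrobp. That setting called 7226 of the 15450 genes tested, against 2258 with all libraries, so the rise was not particular to the members. Markers differed between the same groups. In knockout water 11 of 13 stromal genes and 3 of 6 dendritic cell genes were lower. Higher there were 4 of 6 B cell genes, 7 of 12 cell cycle genes and 3 of 9 neutrophil genes. Of 9 macrophage genes tested, 2 were higher and 1 lower. The B cell genes were low, and apart from Ighm (up to 30.5 CPM) none exceeded 3.17 CPM in a library. Their sum overlapped, at 15.1 to 19.6 CPM in knockout water and 3.21 to 30.5 in wild-type water. The summed dendritic cell genes were at 706 to 732 CPM in knockout against 1226 to 1612 in wild type, and the cell cycle genes at 804 to 852 against 89.8 to 330. Their part in the members' differences was not tested. Whether the genotypes were cultured together is not stated, so genotype and culture cannot be told apart.

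Markers of other states moved with the MDP response in knockout. Summed over 12 cell cycle genes, the level was 804 to 852 CPM in knockout water, 629 to 674 with GM and 494 to 528 with MDP, and all 12 were lower with MDP (edgeR). Summed over 7 dendritic cell genes it was 706 to 732 CPM in water and 771 to 873 with MDP, and over 14 stromal genes 122 to 153 and 173 to 188. Of the 6 dendritic genes tested 3 rose and 2 fell. Of 13 stromal genes 0 rose and 1 fell, with a median log2 change of -0.24, so the higher stromal sum was not shared by the list. Lox was the highest stromal gene, at 15.6 to 177 CPM over all libraries, and no other exceeded 72.0. The part of these markers in the members' results was not tested. Neutrophils, a main site of Trem1 expression, are a type that marrow cultures can hold. Their 12 genes summed to 2409 to 2428 CPM in knockout water and 2325 to 2477 with MDP, overlapping, and 1 of 9 tested (Camp) rose. Most of the sum was Mmp8 (1231 to 2519 CPM over all libraries). The defining gene Ly6g had at most 4 reads in a library, Elane at most 3 and Retnlg at most 1. Other listed genes were detected, with up to 3148 reads of S100a8, 2836 of S100a9, 1078 of Csf3r, 259 of Ngp and 133 of Ltf in a library. Among natural killer and T cell genes, which would mark other users of Hcst, Gzma and Prf1 had 0 reads in all 18 libraries, while Cd3g reached 116 reads and Cd2 33 in a library. Of the 4 tested, 1 (Cd2) was lower with MDP in knockout. In bulk RNA, fewer cells of a type and less RNA per cell cannot be told apart.

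Other genes of the pathway were taken from 7 lists. Against water, 19.2% of all genes passed with MDP in knockout (9.16% higher, 10% lower) and 8.34% with MDP in wild type. The counts per list below stand beside these shares. Of 11 tested relatives in the TREM and CD300 families, 1 rose and 6 fell with MDP in knockout, with a median log2 change of -0.20 against -0.01 over all genes. Treml4, a DAP12-linked receptor, rose (log2 0.74), while Cd300lb, an activating CD300 gene, fell (-0.46) and Cd300lg fell (-2.78, from 2.02 ± 0.515 to 0.285 ± 0.114 CPM). In wild type Treml2 rose with MDP (1.18), the only one of the 11 to pass (8.34% of all genes passed). The MDP responses of Treml2 (wild type minus knockout 0.99, adjusted p = 0.0251) and Cd300lb (0.50, adjusted p = 0.0202) differed between genotypes. GM in knockout raised Treml4 (1.74, adjusted p = 3.6e-10) and lowered Cd300lg (-1.43).

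Activating receptors outside these families included C-type lectins and Fc receptors. Of 20 tested, 8 rose and 5 fell with MDP in knockout, with a median of 0.26. Clec4e, which encodes the C-type lectin Mincle, rose 1.14 on the log2 scale and Klrk1, the DAP10-linked NKG2D gene, 1.24. The DAP12-linked partners of the inhibitory members rose as well: Pilrb1 (0.55), Pilrb2 (0.47), Sirpb1a (0.64), Sirpb1b (0.31) and Sirpb1c (0.53). Those whose size fell outside the naming rule, Pilrb1, Pilrb2, Sirpb1b and Sirpb1c, were named after their values were seen, as paralogs of Pilra and Sirpa. In wild type 3 rose with MDP, Clec4e (1.12), Sirpb1a (1.08) and Sirpb1c (0.81). GM in wild type raised Clec4e alone of the 20, from 35.8 ± 13.4 to 548 ± 179 CPM (SD, n = 3; log2 3.93, adjusted p = 0.0181), and its GM response differed between genotypes (3.63, adjusted p = 0.00101). None of the other 6 lists had a gene that passed with GM in wild type, with 1 to 4 genes each at an unadjusted p below 0.05.

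**Figure D4:**
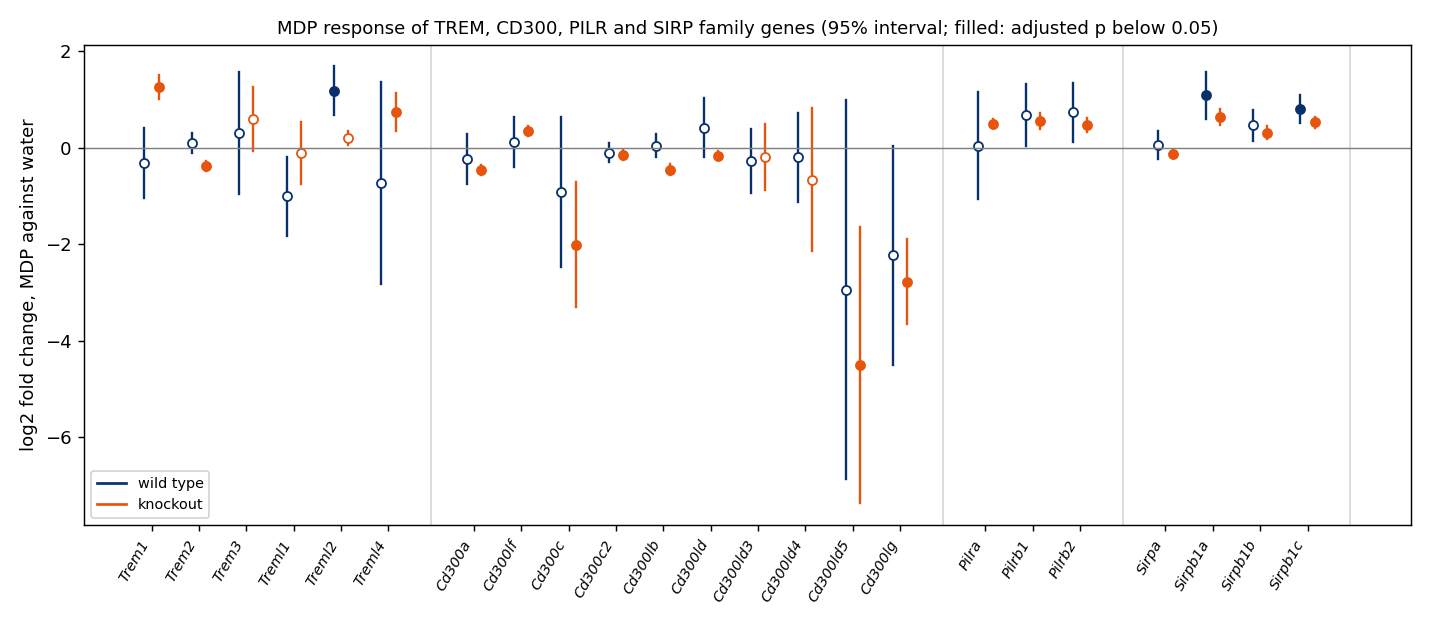
Log2 fold change for MDP against water with its 95% interval in wild type and knockout, for TREM, CD300, PILR and SIRP family genes (filled: edgeR adjusted p below 0.05). Trem1 lies at 1.26 in knockout and at -0.33, not past the test, in wild type, and the 2 Pilrb genes and 3 Sirpb1 genes pass in knockout.

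Of 17 other ITIM receptors, 4 rose and 7 fell with MDP in knockout, with Siglecf (-1.02), Cd72 (0.77) and Siglece (0.71) the most changed. Of the 9 tested adaptor and proximal kinase genes, 1 rose (Fgr, a Src family kinase, 0.18) and 2 fell, the kinases Tec (-0.51) and Ptk2b (-0.22). Fcer1g, the other ITAM adaptor of myeloid cells, did not pass against water. Of 25 genes acting below Syk, 1 rose and 6 fell, against 19.2% of all genes passing. Among those that fell were Rasgrp3 (-0.99), Lat (-0.86) and Lat2 (-0.55), the last 2 encoding scaffolds. In wild type Blnk (0.77), a scaffold that Syk phosphorylates, and Grb2 (0.42) rose with MDP and Lcp2 (-0.63) fell. These were 3 of the 25, against 8.34% of all genes passing. Of 16 phosphatases and other brakes, 1 rose (Cblb, a ubiquitin ligase, 0.23) and 3 fell with MDP in knockout, against 19.2% of all genes passing. Ptpn22 (-0.59) and Dok2 (-0.52) were the most changed. The genes of the phosphatases that ITIMs recruit, Ptpn6, Ptpn11 and Inpp5d, passed in no comparison with water.

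Ligands were measured in the same cells. Of 21 ligand and shedding genes, 3 rose and 4 fell with MDP in knockout, against 19.2% of all genes passing. Cd47, the ligand of SIRP-alpha, rose with MDP in knockout (log2 0.31, adjusted p = 1.4e-06) and in wild type (0.76, adjusted p = 0.0134), and was higher in knockout than in wild-type water (0.76, adjusted p = 0.0102). Its MDP response was larger in wild type by 0.45 (adjusted p = 0.0419). Clu, which encodes a TREM-2 ligand, rose in knockout (1.03) and wild type (2.25), Lpl fell in knockout (-1.19) and Thbs1 rose there (1.44). Apoe, another TREM-2 ligand gene, did not pass against water, but was lower with GM than with MDP in wild type (-1.65, adjusted p = 0.00194), as Trem2 was. Npdc1, which encodes a PILR-alpha ligand, fell with MDP in wild type (-1.03, adjusted p = 0.0211) and was lower in knockout than in wild-type water (-2.71, adjusted p = 0.00154). Pglyrp1, a TREM-1 ligand gene, and Adam10, whose protease sheds TREM-2, did not pass against water.

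The genes closest to Trem1 over the 6 group means, by root mean square difference of centred log2 CPM (pseudocount 0.5), were Gprin2 (0.120), Icos (0.148) and Slc16a3 (0.162), against a range of 1.93 for Trem1. Slc16a3, the lactate exporter MCT4, was at 98.2, 131 and 85.5 CPM in wild-type water, GM and MDP and at 163, 153 and 271 in knockout. Gprin2 and Icos were low, at most 1.23 and 3.33 CPM in a group. For Trem2, whose range was 0.81, they were Gm37915 (0.0529), D3Ertd751e (0.0539) and Gm5527 (0.0542), at most 1.05, 4.36 and 8.82 CPM.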

How the data were processed

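Expression was taken from the deposited table of raw read counts per gene, whole numbers in 18 libraries. Per the submitters' processing notes, the authors aligned reads with HISAT2 2.0.5 to GRCm39 and counted them with featureCounts 1.5.0-p3. Libraries were poly(A)-selected and directional, per the labels. The annotation release and the use of strand and of multi-mapped reads are not given in the sources used here. The authors' deposited FPKM table served only to check the order of levels. Genes were kept by filterByExpr (minimum count 10; 15450 kept) and scaled with TMM in R 4.3.3 with edgeR 4.0.16. Quasi-likelihood tests used the 6 compared libraries, or 12 for differences between genotypes, because the spread differed between groups. Each test still pooled the spread of its own groups. That spread was alike within knockout, but not between genotypes or between wild-type MDP and the other wild-type groups. SE and 95% intervals are from that fit. Alternatives were 1 fit of all 18 libraries, DESeq2 1.42.0, limma 3.58.1 with a spread per group, DESeq2-type size factors, no filter, a replicate block and leaving out each library. All members are named, and per list and comparison up to 3 called genes with the largest change and a mean of at least 1 CPM, plus ligand and signalling partners. The members and lists were chosen with earlier results of these data known.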

Additional observations from a re-analysis of the deposited data

Results flagged for a closer look

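The MDP response differed between genotypes for Trem1 and Trem2, by the test of the difference itself (edgeR). Wild type minus knockout, it was -1.58 on the log2 scale for Trem1 (adjusted p = 0.0117) and 0.48 for Trem2 (adjusted p = 0.0164). GM against MDP also differed between genotypes, by 1.87 for Trem1 (adjusted p = 0.00203) and -0.74 for Trem2 (adjusted p = 0.000352). The last 2 come from a comparison added after the data were seen, and the 4 values share the MDP libraries. Wild-type Trem1 rests on 52 to 186 reads per library. Markers moved in the same tests. For the MDP response between genotypes, 4 of 13 stromal genes were lower and 4 of 12 cell cycle genes higher. For GM against MDP between genotypes, 4 of 13 stromal genes were higher and 10 of 12 cell cycle genes lower. In either list 0 passed the other way. Over all genes, 7.97% and 15.1% passed in these 2 tests. In wild type, 9 of 13 stromal genes were lower with MDP than with water. The part of these markers in the 4 values was not tested.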

How the results depend on the processing

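Of 20 member results past the threshold, 6 passed under every alternative run: Trem1 and Trem2 for MDP against water in knockout (log2 1.19 to 1.33 and -0.42 to -0.34), Trem2 for GM against MDP in knockout, Trem1 for the MDP response between genotypes, and both genes for GM against MDP between genotypes. With all 18 libraries in 1 fit, members called changed from 0 to 1 for GM and from 0 to 1 for MDP against water in wild type, from 1 to 2 for GM against MDP in wild type, from 2 to 0 for GM, from 7 to 2 for MDP and from 5 to 1 for GM against MDP in knockout, and from 1 to 5 between genotypes in water. The last was 3 with DESeq2 and 2 with limma. The replicate block gave 0 there and 0 for GM against MDP in wild type. The block changed no other count of members by over 1.5 times. Wild-type water and GM libraries of the same number correlated at 0.57 and 0.54 for replicates 2 and 3, but at -0.21 for replicate 1. Replicate structure shared by these 2 groups is therefore possible. In the other comparisons the same-number correlations ran from -0.05 to 0.14. Leaving out 1 library, the counts ran from 0 to 0 for GM and 0 to 3 for MDP against water in wild type, 0 to 2 for GM against MDP there, 1 to 3, 6 to 7 and 5 to 6 for the same in knockout, 0 to 8 between genotypes in water, 0 to 0 for the GM and 1 to 5 for the MDP response between genotypes, and 2 to 3 for GM against MDP between genotypes. The 3 for MDP in wild type, the 8 between genotypes and the 5 for the MDP response came without wild-type water replicate 3, the 3 for GM in knockout without knockout GM replicate 1, and the 3 for GM against MDP between genotypes without wild-type GM replicate 2 or 3. Pilra for MDP in wild type turned from 0.04 to a called -0.37 without wild-type water replicate 3 (-0.37 to 0.38 over the libraries left out). Small differences that passed in neither setting also changed sign, such as Cd300a for GM in wild type (-0.34 to 0.10) and Trem3 for MDP there (-0.14 to 0.53). Over all genes, the fit of 18 libraries called 729 against 94 for GM and 3810 against 1288 for MDP in wild type, 3001 against 1544 for GM against MDP there, 3 against 1212, 427 against 2963 and 242 against 2532 for the same in knockout, 5110 against 2258 between genotypes, and 287 against 145 and 1511 against 2331 for the GM response and GM against MDP between genotypes. DESeq2 called 356, 2457, 2618, 3593, 317 and 1962 for GM, MDP and GM against MDP in wild type, for genotype in water and for the GM and MDP responses between genotypes, where the last was 1232 in the reported test. The replicate block called 166 for GM and 387 for MDP in wild type and 855 between genotypes in water. Leaving out 1 library, the counts over all genes ran from 0 to 288 for GM, 187 to 5479 for MDP and 209 to 4478 for GM against MDP in wild type, 329 to 7226 between genotypes in water, and 71 to 557, 647 to 4044 and 1503 to 4609 for the GM response, the MDP response and GM against MDP between genotypes. The highest came without wild-type water replicate 3 or, for GM against MDP, wild-type GM replicate 2. The causes were not tested beyond the spread per group. Depth limits Trem3, with 5 to 58 reads per library.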

Other observations

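Several activating and inhibitory receptors of myeloid cells differed more between the genotypes in water than any of the 10 genes did. Sirpb1c was at 90.8 ± 3.84 CPM in knockout and 10.2 ± 0.438 in wild type (SD, n = 3; log2 3.15, edgeR adjusted p = 0.000177), and Sirpb1a at 24.7 ± 2.45 and 3.47 ± 0.272 (2.83, adjusted p = 0.000478). Siglece, an ITIM receptor for sialic acids, was at 36.0 ± 4.42 and 1.91 ± 1.58 CPM (4.22, adjusted p = 0.00878). Clec4e was at 255 ± 31.4 and 35.8 ± 13.4 CPM (2.83, adjusted p = 0.00280). Of 20 activating receptor genes tested, 10 were higher and 3 lower in knockout water (14.6% of all genes passed, 6.32% higher). Their median log2 difference was 1.11, against -0.03 over all genes. The Sirpb1 genes are near-identical copies, so the split of reads between them is uncertain.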
